A study of Mus musculus with 6 samples.

Results

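The genes described here are the 8 Toll-like receptor genes Tlr1, Tlr2, Tlr4, Tlr6, Tlr7, Tlr8, Tlr9 and Tlr13, the co-receptor gene Cd14 and the adaptor gene Myd88. They were chosen by symbol and are 10 of the 20394 genes in a single-cell table of sorted CD45-positive cells from the inflamed joints of mice. All animals were male C57BL/6 mice, 8 weeks old when bought, with antigen-induced arthritis. They were immunized with 10 μg methylated bovine serum albumin (mBSA) in complete Freund's adjuvant and challenged in the knee with 100 μg mBSA on day 21. The study used 6 samples from day 3 after the challenge, 2 from mice given the vehicle PBS and 4 from mice given 300 μg PEPITEM, a peptide made by B cells that limits leukocyte migration. The disease is local and driven by 1 known antigen, and the adjuvant holds killed mycobacteria, a source of Toll-like receptor ligands.

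Toll-like receptors are membrane proteins that bind conserved molecules of microbes and some products of damaged cells. TLR1, TLR2, TLR4 and TLR6 sit at the cell surface: TLR2 pairs with TLR1 or TLR6 to bind lipoproteins, and TLR4 binds lipopolysaccharide that CD14 hands to it. TLR7, TLR8, TLR9 and TLR13 sit in endosomes and bind nucleic acids. All 8 receptors signal through the adaptor MyD88, which recruits IRAK kinases and leads to NF-kB and to transcription of cytokine genes. In arthritic joints these receptors have been studied mostly on macrophages, neutrophils and fibroblasts.

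The cells carried a library number from 1 to 6 in their barcodes, and no label tied a number to a sample, so vehicle and PEPITEM were not compared and no p-value was computed. Values are unique molecular identifiers (UMIs) of a gene per 1000000 UMIs of all genes, written CPM, pooled over the cells of a class, with the lowest, median and highest library among those with at least 10 cells of the class. The 6 libraries held 2919 to 9345 cells each, 32953 in all, with a median of 11376 UMIs per cell. Of the barcodes, 138 occurred in more than 1 library. Classes were gated on marker genes that included none of the 10 genes, and 21452 cells (65.1%) fell in 23 classes of at least 50 cells, while 8400 cells matched no gate and 2967 matched more than 1. Many cells sat at the minimum of their gate: 256 of 5149 mature neutrophils did, 652 of 2472 classical monocytes, 386 of 901 inflammatory macrophages, 201 of 283 type 2 dendritic cells and 440 of 2104 Ms4a1 B cells. The classes included 1014 cycling neutrophil precursors, 523 granulocyte precursors, 607 pro-B cells and 1016 pre-B cells. Which part of the digested joints the cells came from was not tested. Intervals are 95% and cover counting error only, and fewer transcripts per cell and fewer transcribing cells cannot be told apart in a pooled value.

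The promoters of the genes in GRCm38.p6 are shown first, because several of the genes had like patterns over classes and because Tlr1 and Tlr6, and Tlr8 and Tlr7, are neighbours. RefSeq windows of the 250 bases before a start were at hand for 7 of the 10 genes. A window each of Tlr1, Tlr8 and Tlr9 is printed 5′ to 3′ in lower case because these genes represent 3 different patterns over classes. Matches to short motifs on either strand are in capitals. The motifs searched were GAGGAAGT for PU.1, TTGCNNAA for C/EBP, TGANTCA for AP-1, GAAANNGAA for IRF and GGANTTTCC for NF-kB.
Tlr1, minus strand, chr5:64933559-64933808: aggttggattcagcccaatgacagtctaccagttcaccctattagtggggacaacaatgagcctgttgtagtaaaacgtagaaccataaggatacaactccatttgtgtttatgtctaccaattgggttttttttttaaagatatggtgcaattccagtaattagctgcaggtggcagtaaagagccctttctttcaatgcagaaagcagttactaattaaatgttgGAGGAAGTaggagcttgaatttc
Tlr8, minus strand, chrX:167264330-167264579: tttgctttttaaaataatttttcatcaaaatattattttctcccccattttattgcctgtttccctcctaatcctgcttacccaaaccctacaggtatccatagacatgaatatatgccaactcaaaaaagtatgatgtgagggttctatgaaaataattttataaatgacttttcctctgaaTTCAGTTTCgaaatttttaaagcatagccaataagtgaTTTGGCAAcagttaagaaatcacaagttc
Tlr9, plus strand, chr9:106222348-106222597: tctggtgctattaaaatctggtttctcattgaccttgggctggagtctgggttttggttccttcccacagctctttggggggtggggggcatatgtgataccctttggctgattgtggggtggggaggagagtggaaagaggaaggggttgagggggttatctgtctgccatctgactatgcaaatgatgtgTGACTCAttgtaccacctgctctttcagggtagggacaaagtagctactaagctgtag

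The printed Tlr1 window held 1 match of the PU.1 letters. The Tlr8 window held 1 match each of the C/EBP and IRF letters, and the Tlr9 window 1 match of the AP-1 letters. Over 32851 promoter windows of the same length the PU.1 letters occurred in 2.44%, the C/EBP letters in 9.56%, the AP-1 letters in 6.75%, the IRF letters in 7.13% and the NF-kB letters in 1.07%. Among the windows not printed, 1 of Tlr6 held 1 C/EBP and 2 IRF matches and that of Myd88 held 1 IRF match. The windows of Tlr2 and Tlr13, another window of Tlr1 (chr5:64932700-64932949) and the other window of Tlr6 held none of the 5 motifs. A match is a description of these letters only. In the GRCm38 annotation all 10 genes are protein coding. Tlr1 (chr5:64924679-64933563) and Tlr6 (chr5:64952031-64960097) lie on the same strand with a gap of 18.5 kb, and Tlr8 (chrX:167242696-167264329) and Tlr7 (chrX:167304929-167330558) lie on the same strand with a gap of 40.6 kb. Tlr13 (chrX:106143204-106160493), Tlr2 (chr3:83836272-83841767), Tlr4 (chr4:66827584-66930284), Tlr9 (chr9:106222598-106226883) and Cd14 (chr18:36725067-36726798) overlap no other gene. Myd88 (chr9:119335934-119341411) overlaps Slc22a14 on the same strand and Acaa1a on the opposite strand, so some of its UMIs could be uncertain in origin.

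Across the joint, Cd14 transcripts were found in 63.2% of all cells (355626 UMIs), Tlr2 in 54.8% (84794), Myd88 in 37.3% (21906), Tlr4 in 29.7% (21397) and Tlr13 in 23.2% (12161). Tlr7 was found in 15.3% of cells (8653 UMIs), Tlr6 in 9.59% (3871), Tlr8 in 8.55% (3911), Tlr1 in 7.92% (3566) and Tlr9 in 1.17% (403). Mature neutrophils and Cxcl9 macrophages each held 9 of the 10 genes at 10 CPM or more, all but Tlr9. Inflammatory and resident macrophages held 8, both monocyte classes 7, immature neutrophils and Ms4a1 B cells 5, T cells and pre-B cells 2 and natural killer cells 1. The part in these counts of neutrophil transcripts found in other classes, described with Cd14, was not tested. Of all 20394 genes, 6581 reached 10 CPM in mature neutrophils, 7383 in Cxcl9 macrophages, 7940 in T cells and 7763 in natural killer cells. Toll-like receptor transcripts were most widespread in mature and immature neutrophils, monocytes and macrophages. At least 1 of the 8 receptors was detected in 98.8% of classical monocytes and 87.6% of mature neutrophils, against 12.3% of T cells and 6.18% of natural killer cells. When each cell was thinned to 3000 UMIs, so that depth was equal, these shares were 73.2%, 76.3%, 5.69% and 2.37%. Not all myeloid classes were high: the shares before and after thinning were 45.5% and 13.9% in type 1 dendritic cells. They were 8.72% and 8.42% in mast cells, and 21.2% and 12.2% in Ms4a1 B cells.

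**Figure D1:**
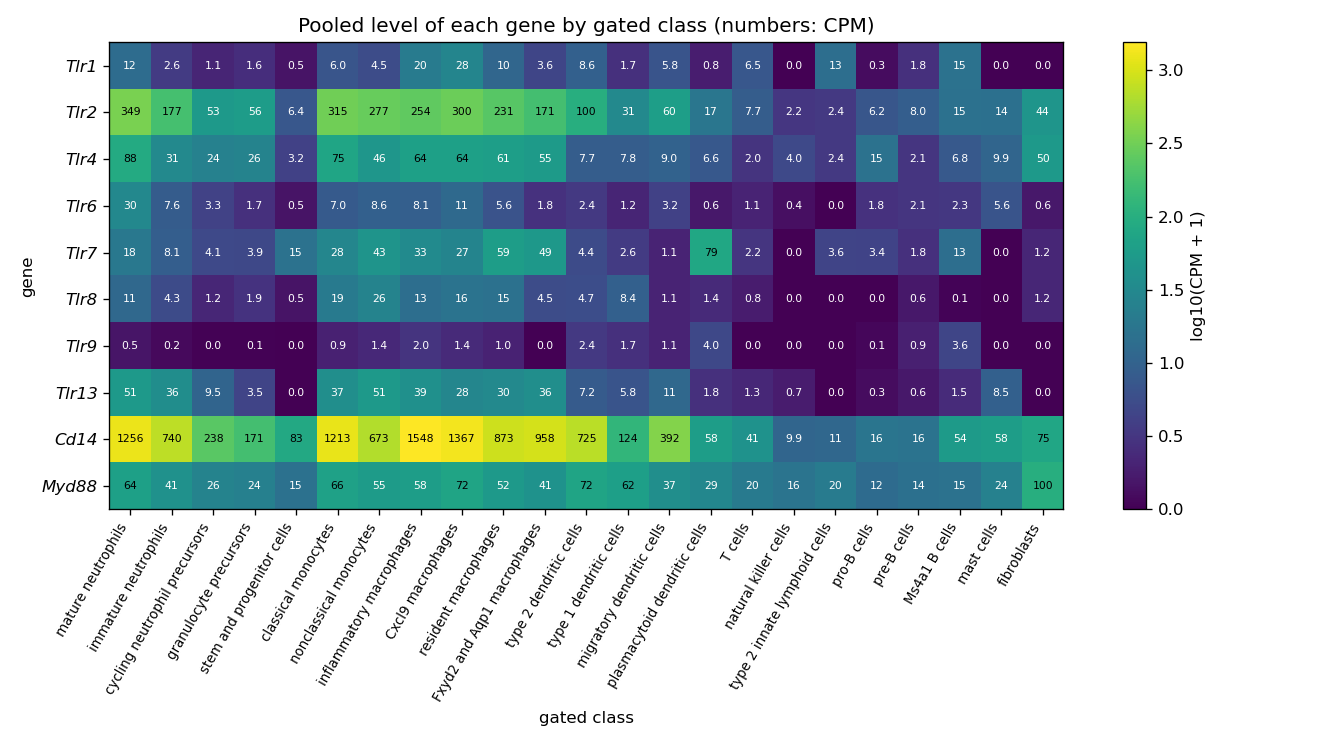
Pooled level of the 10 genes (rows) in the 23 gated classes (columns), colored by log10(CPM + 1) with the CPM printed in each cell. The Cd14, Tlr2, Tlr4 and Tlr13 rows are highest in neutrophil, monocyte and macrophage columns, Tlr7 is highest in plasmacytoid dendritic cells at 78.6 CPM, and Tlr9 stays under 4 CPM in every column.

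Tlr2, the shared partner of the lipoprotein receptors, was highest in mature neutrophils, nearly as high in classical monocytes and lower in the macrophages. In mature neutrophils it reached 349 CPM (343 to 354), with libraries at 318, 346 and 386 CPM for the lowest, median and highest. In classical monocytes it reached 315 CPM (309 to 320), with libraries at 285, 323 and 379 CPM. These library ranges overlapped, as did those of most classes that stand next to each other in the order of levels. The Tlr2 level was 300.1 CPM in Cxcl9, 254 CPM in inflammatory, 231 CPM in resident and 171 CPM in Fxyd2 and Aqp1 macrophages. It was 177 CPM in immature neutrophils. The highest libraries of inflammatory (272 CPM) and of Fxyd2 and Aqp1 macrophages (181 CPM) lay below the lowest of mature neutrophils. Those of Cxcl9 (327 CPM) and resident macrophages (360 CPM) did not. Of the 22 neighbouring classes in the Tlr2 order only 1 pair did not overlap between libraries, type 2 dendritic cells (99.7 CPM) and migratory dendritic cells (59.9 CPM). Neighbours in an order are closest in level, so their overlap says little about classes further apart. The same count over all genes is not given here. Tlr2 was detected in 72.5% of mature neutrophils (71.3 to 73.7) and in 92.8% of classical monocytes (91.8 to 93.8), at median depths of 4918 and 16354.5 UMIs per cell. After thinning, the shares were 58.6% and 56.0%, so the higher share in monocytes was not seen at equal depth. In T cells, which should hold little Tlr2 and had a median depth of 8643 UMIs, the share was 3.88% and the level 7.74 CPM.

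Tlr1 and Tlr6, the partners of Tlr2, differed in where they were highest although the genes are neighbours. Tlr6 stood apart in mature neutrophils, at 29.6 CPM (27.9 to 31.3), with libraries at 21.9, 29.5 and 31.6 CPM. Cxcl9 macrophages were next at 11.5 CPM, and their highest library (20.5 CPM) was below the lowest of mature neutrophils, a 2.58-fold difference that was the only step without overlap in the Tlr6 order. In all other classes Tlr6 was under 10 CPM. It was detected in 18.2% of mature neutrophils and 1.11% of T cells, and in 9.64% and 0.341% after thinning.

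Tlr1 was highest in Cxcl9 macrophages at 27.6 CPM (23.7 to 32.04), with libraries at 23.3, 24.7 and 32.6 CPM over the 5 libraries with enough cells. Inflammatory macrophages followed at 20.5 CPM, with libraries from 10.1 to 28.1 CPM, and Ms4a1 B cells at 14.98 CPM, with libraries from 11.3 to 20.1 CPM. With Leiden clusters inflammatory macrophages came first, but no cluster was named Cxcl9 macrophages, so the top of the order could not be compared. No neighbouring pair of classes in the Tlr1 order was free of overlap. Classes further apart in the order did not all overlap. The lowest Cxcl9 macrophage library, at 23.3 CPM, lay above the highest libraries of Ms4a1 B cells (20.1 CPM), resident macrophages and mature neutrophils. Type 2 innate lymphoid cells stood between B cells and mature neutrophils (12.3 CPM) in the order. Tlr1 was detected in 42.6% of Cxcl9 macrophages, 8.37% of B cells and 6.86% of mature neutrophils. No Tlr1 UMI was seen in 259 natural killer cells, where a count of 0 allows a level of up to 1.10 CPM (3 counts).

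Tlr4, the lipopolysaccharide receptor, was highest in mature neutrophils and present in monocytes, macrophages and fibroblasts. The level was 88.3 CPM (85.4 to 91.2) in mature neutrophils, with libraries at 75.6, 89.0 and 116 CPM. In classical monocytes it was 75.1 CPM, with libraries at 43.1, 78.9 and 94.4 CPM, where library 2 was the low one. Inflammatory and Cxcl9 macrophages stood at 64.4 CPM each, resident macrophages stood at 61.1 CPM and fibroblasts, the stromal cells that passed the CD45 sort, at 50.4 CPM. No pair of neighbouring classes in the Tlr4 order was free of overlap, but some classes further apart were. The lowest mature neutrophil library (75.6 CPM) lay above the highest of inflammatory macrophages (74.6 CPM), Cxcl9 macrophages (68.4 CPM) and fibroblasts (59.1 CPM). The ranges of classical monocytes (up to 94.4 CPM) and resident macrophages (up to 82.5 CPM) overlapped that of mature neutrophils. Pro-B cells held 14.7 CPM (12.0 to 17.9) from 104 UMIs, with libraries from 5.47 to 25.5 CPM that overlapped those of Ms4a1 B cells (4.10 to 15.9 CPM). Without thinning 10.4% of pro-B cells were positive, against 2.47% of Ms4a1 B cells and 1.22% of T cells. The median depths of these classes were 8180, 5741 and 8643 UMIs. Ly96, which encodes the MD-2 subunit that binds lipopolysaccharide together with TLR4, was highest in Fxyd2 and Aqp1 macrophages (59.1 CPM) and resident macrophages (55.3 CPM), with 31.7 CPM in mature neutrophils and 31.4 CPM in classical monocytes.

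Cd14, which encodes the surface protein that delivers lipopolysaccharide and lipoproteins to the receptors, was highest in inflammatory macrophages by CPM, while TMM scaling of the totals, described with the class pairs, put mature neutrophils first. The level in inflammatory macrophages was 1548 CPM (1531 to 1566), with libraries at 1244, 1586 and 1752 CPM, and 98.0% of the cells were positive. Cxcl9 macrophages held 1367 CPM, mature neutrophils 1256 CPM with libraries from 979 to 1493 CPM, and classical monocytes 1213 CPM with libraries at 945, 1365 and 1900 CPM. Neutrophils thus carried Cd14 transcripts at a level whose library range overlapped that of classical monocytes. Type 2 dendritic cells held 725 CPM, type 1 dendritic cells 124 CPM and granulocyte precursors 171 CPM. Positive cells made up 80.1% of mature neutrophils and 91.7% of classical monocytes, and 74.7% and 78.0% after thinning. The share in T cells was 4.22% at a level of 41.4 CPM.

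Transcripts of the mature-neutrophil marker genes were found in every class. The 8 markers of mature neutrophils summed to 84382 CPM in mature neutrophils, 9369 CPM in type 2 dendritic cells, 2861 CPM in Ms4a1 B cells, 1867 CPM in pre-B cells, 1158 CPM in T cells and 609 CPM in type 1 dendritic cells. The sums were higher in macrophages, 24045 CPM in resident, 17763 CPM in Cxcl9 and 15881 CPM in inflammatory macrophages. Mast cells held 13496 CPM of these markers, 1006 CPM of the immature-neutrophil markers and 57.9 CPM of Cd14. None of the 8 markers was at 0 in any class. At the ratio of Cd14 to these markers in mature neutrophils, the markers would carry 42.6 of the 54.2 CPM of Cd14 in B cells, 17.2 of the 41.4 CPM in T cells, 139 of the 725 CPM in type 2 dendritic cells and 9.06 of the 124 CPM in type 1 dendritic cells. They would carry 358 of the 873 CPM in resident and 236 of the 1548 CPM in inflammatory macrophages. The same sum exceeded the observed level in pre-B cells (27.8 against 15.5 CPM) and in mast cells (201 against 57.9 CPM). At the lower ratio of immature neutrophils the carried Cd14 would be 12.2 CPM in B cells, 7.93 CPM in pre-B cells, 4.92 CPM in T cells, 39.8 CPM in type 2 and 2.59 CPM in type 1 dendritic cells. In mast cells it would be 57.4 CPM, in resident macrophages 102 CPM and in inflammatory macrophages 67.5 CPM. For Tlr2 in resident macrophages the mature and immature ratios give 99.3 and 24.5 of 231 CPM. For Tlr6 in Cxcl9 macrophages they give 6.23 and 0.773 of 11.5 CPM. Whether other classes transcribe the marker genes themselves was not tested, nor was the part of neutrophil transcripts in the lymphocyte and macrophage values.

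**Figure D2:**
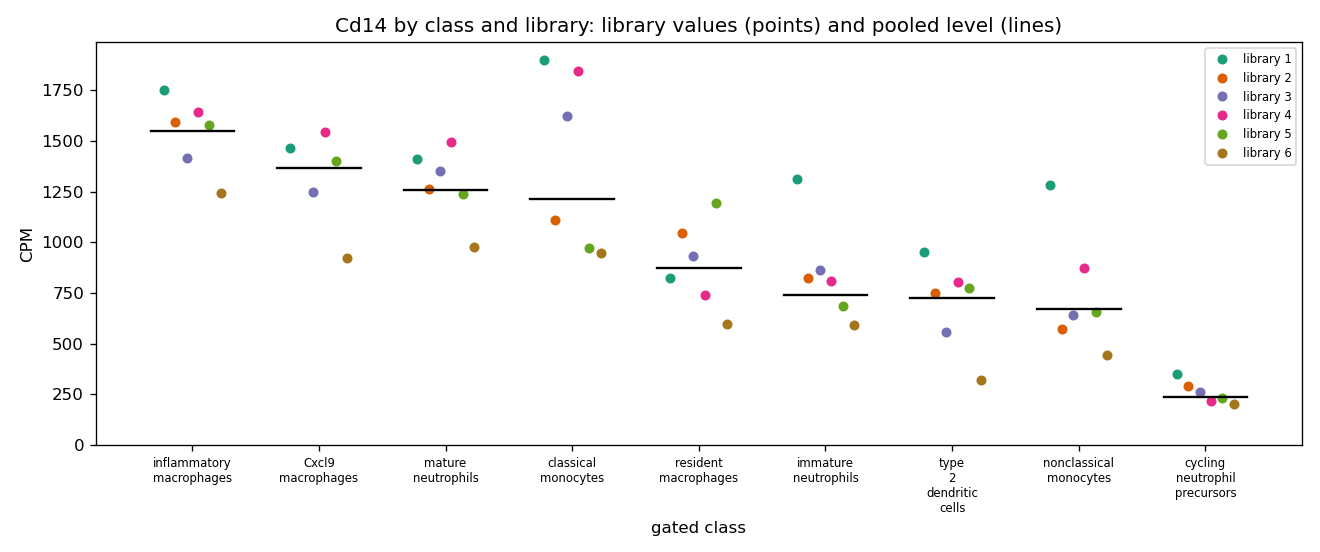
Cd14 level in 9 classes, in CPM on a linear axis, with 1 point per library of at least 10 cells and a line at the pooled level. Library 6 is the lowest point in 7 of the 7 classes that reached 500 CPM with all 6 libraries present.

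Cd14 varied between libraries, in some classes more and in others less than the median of all genes from 10 CPM. That median takes in genes with far fewer UMIs than Cd14 or Tlr2, whose ratios hold more counting error. A ratio below it therefore does not show a small spread. In classical monocytes the libraries 1 to 6 held 1900, 1110, 1620, 1843, 970 and 945 CPM, so that 3 libraries were high and 3 were low. The highest over the lowest was 2.01, against a median of 1.497 over all genes from 10 CPM in that class, and 2.19 for Tlr4. Cd14 also spread more than the median gene in immature neutrophils (2.22 against 1.59) and type 2 dendritic cells (2.98 against 1.88). It spread less in mature neutrophils (1.53 against 1.65), inflammatory macrophages (1.41 against 1.62), Cxcl9 macrophages (1.68 against 1.70) and resident macrophages, where 1194 over 597 CPM stood against a median ratio of 2.20. For Tlr2 in mature neutrophils the same ratio was 1.21 against a median of 1.65. Library 6 was lowest for Cd14 in 7 of 7 classes, and library 1 was highest in 5 of them. The high libraries 1, 3 and 4 were those with the fewest cells, 3345, 2919 and 3996, against 5809, 9345 and 7539 in libraries 2, 5 and 6. The summed neutrophil markers in classical monocytes were 8280, 10819, 3261, 3494, 10997 and 9823 CPM in libraries 1 to 6. The part of cell number and of neutrophil transcripts in the Cd14 spread was not tested, and the treatment of each library number was not known.

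Tlr7, a receptor for single-stranded RNA, was highest in plasmacytoid dendritic cells, the cells that make large amounts of type I interferon. Their level was 78.6 CPM (71.0 to 86.7), with libraries at 61.7, 75.5 and 120 CPM, and 50.8% of them were positive (45.7 to 55.8) at a median depth of 11561 UMIs. Resident macrophages followed at 58.9 CPM (52.3 to 65.98), then Fxyd2 and Aqp1 macrophages at 49.1 CPM, with libraries from 30.2 to 74.9 CPM. Next were nonclassical monocytes, the patrolling monocytes of the vessel wall, at 43.2 CPM. The libraries of resident macrophages overlapped those of plasmacytoid dendritic cells: libraries 1 to 6 held 56.8, 15.96, 66.3, 74.0, 59.4 and 17.1 CPM. Libraries 2 and 6, the low ones, held 14 and 26 resident macrophages and summed neutrophil markers of 56435 and 55724 CPM in them. The others held 28 to 128 cells and 2599 to 39595 CPM, and the part of these transcripts in the Tlr7 spread was not tested. After thinning, 17.3% of 388 plasmacytoid dendritic cells and 19.0% of 315 resident macrophages were positive, close shares that set no order between the classes. Inflammatory macrophages held 32.9 CPM, classical monocytes 28.2 CPM, mature neutrophils 18.2 CPM and Ms4a1 B cells 13.1 CPM. In natural killer cells no Tlr7 UMI was found in 259 cells, which again allows up to 1.10 CPM.

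Tlr8, the neighbour of Tlr7 and also an RNA receptor, had its highest level in nonclassical monocytes, at 25.9 CPM (19.6 to 33.6), with libraries at 10.1, 24.3 and 37.8 CPM. Classical monocytes held 19.4 CPM, with libraries at 15.4, 19.5 and 22.6 CPM inside that range, and they came first under the stricter gate. In plasmacytoid dendritic cells, where Tlr7 was highest, Tlr8 reached 1.39 CPM from 7 UMIs, and in 2104 B cells 1 UMI was found. At 10 CPM or more, the pair thus overlapped in both monocyte classes, in mature neutrophils and in inflammatory, Cxcl9 and resident macrophages. It did not in plasmacytoid dendritic cells or B cells. Fxyd2 and Aqp1 macrophages held 49.1 CPM of Tlr7 and 4.54 CPM of Tlr8. Tlr8 ranged from 0 to 23.9 CPM over the libraries of resident macrophages. After thinning, cells with both genes numbered 13 in classical monocytes, 7 in mature and 2 in immature neutrophils, 3 in inflammatory and 1 in resident macrophages.

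Tlr13, a mouse receptor for bacterial ribosomal RNA, was spread over the phagocytes. Its highest class was mature neutrophils by CPM, nonclassical monocytes with the stricter gate, with Leiden clusters or without library 1 or 2, and immature neutrophils with TMM scaling. It stood at 51.4 CPM in mature neutrophils (libraries 45.6 to 59.4), 50.9 CPM in nonclassical monocytes (30.0 to 58.3), 38.8 CPM in inflammatory macrophages, 36.5 CPM in classical monocytes and 35.9 CPM in immature neutrophils. Neutrophil markers summed to 25521 CPM in nonclassical monocytes, with 463 and 352 CPM in libraries 1 and 4 and 15952 to 46506 CPM in the others. In libraries 1 and 4, with 15 and 23 nonclassical monocytes, Tlr13 was 45.3 and 51.7 CPM and Tlr2 was 438 and 238 CPM. Over all libraries of this class Tlr2 ranged from 224 to 438 CPM. The part of neutrophil transcripts in these levels was not tested. Below the phagocytes the Tlr13 order had 1 step without overlap, from Cxcl9 macrophages at 28.1 CPM to migratory dendritic cells at 11.1 CPM. In B cells it was 1.45 CPM, and 0.808% of them were positive.

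Tlr9, the receptor for unmethylated CpG DNA, was rare. Plasmacytoid dendritic cells held 3.98 CPM (2.43 to 6.14) from 20 UMIs, and Ms4a1 B cells 3.64 CPM (2.70 to 4.79) from 50 UMIs, with libraries at 1.14, 3.88 and 5.07 CPM. Positive cells made up 4.87% and 2.23% of these classes, and none of 901 T cells held a UMI, where 3 counts would be 0.323 CPM. Type 2 dendritic cells followed at 2.36 CPM from 14 UMIs and inflammatory macrophages at 1.99 CPM from 37 UMIs. No neighbouring pair in the Tlr9 order was free of overlap, and without library 5 Ms4a1 B cells came first. Pro-B cells, with libraries up to 0.378 CPM, and immature neutrophils, up to 0.755 CPM, lay below the lowest library of Ms4a1 B cells. Unc93b1, which carries the endosomal receptors from the endoplasmic reticulum, was highest in plasmacytoid dendritic cells at 523 CPM.

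**Figure D3:**
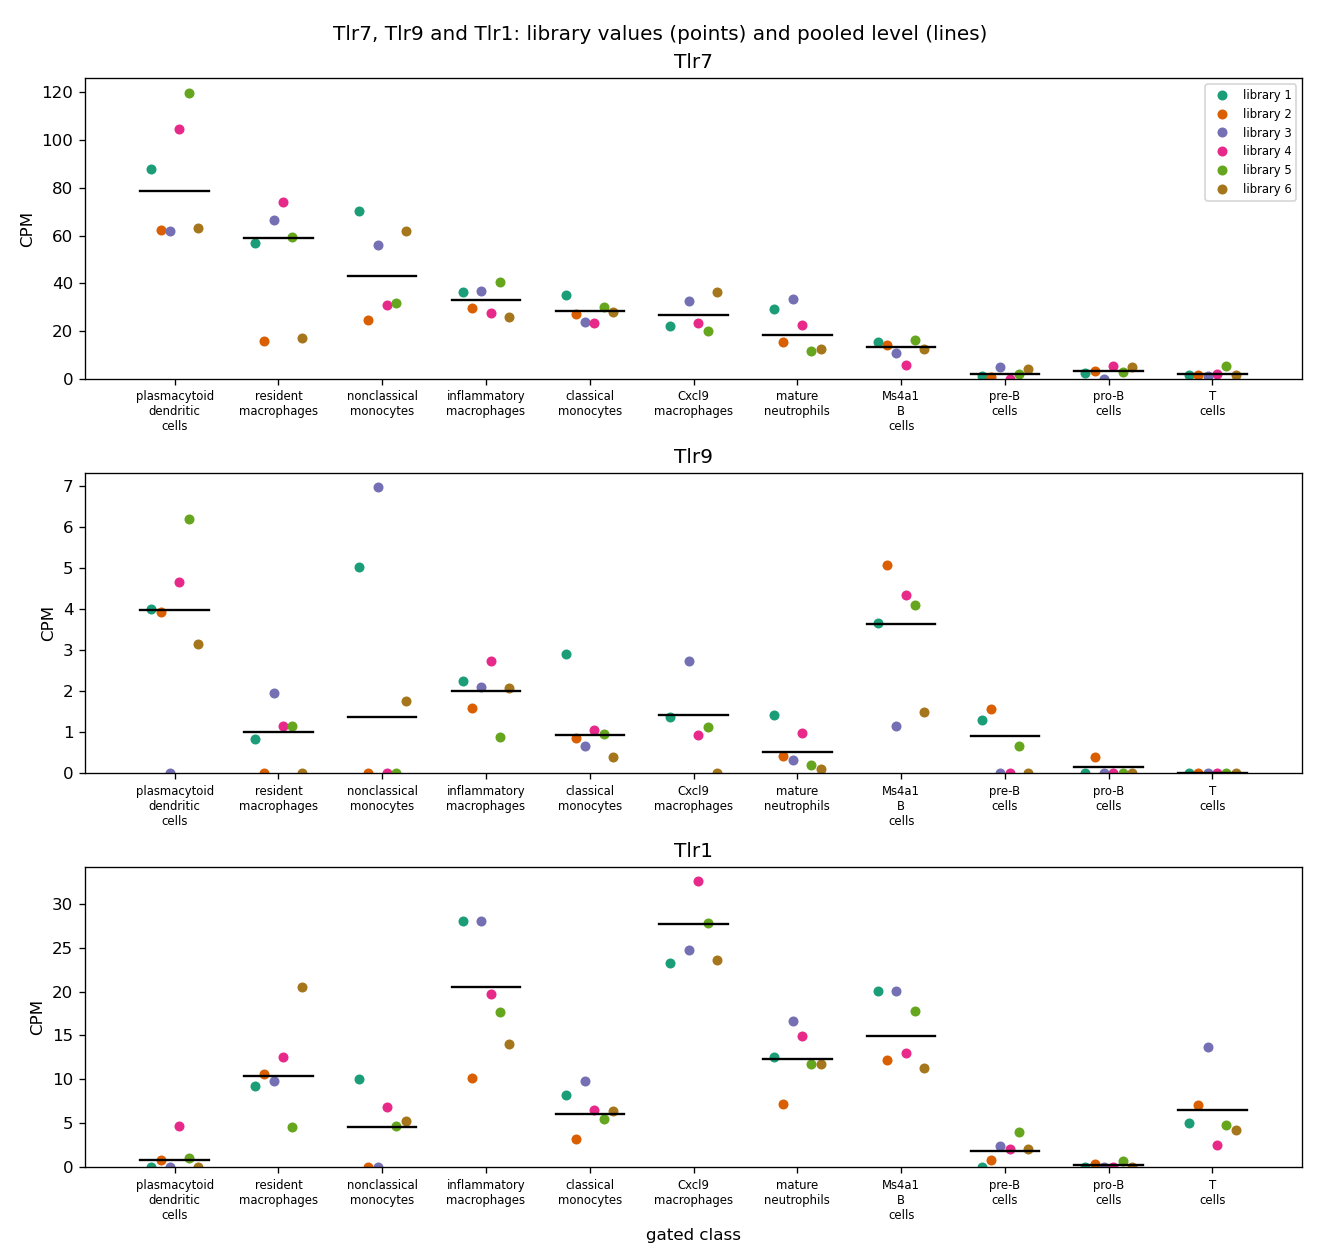
Tlr7 (top), Tlr9 (middle) and Tlr1 (bottom) in 11 classes, in CPM on linear axes that differ between panels, with 1 point per library of at least 10 cells and a line at the pooled level. Tlr7 is at 78.6 CPM in plasmacytoid dendritic cells and 13.1 CPM in Ms4a1 B cells, Tlr1 is at 0.796 and 14.98 CPM in the same classes, and Tlr9 stays under 7 CPM in every point.

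Myd88, the adaptor that all 8 receptors use, was found in lymphoid, myeloid and stromal classes. Fibroblasts held 99.6 CPM over 3 libraries at 59.3, 72.7 and 142 CPM, type 2 dendritic cells 72.4 CPM, Cxcl9 macrophages 71.9 CPM, classical monocytes 65.5 CPM and mature neutrophils 63.5 CPM. The libraries of these classes overlapped, and no neighbouring pair of classes in the Myd88 order was free of overlap. Even lymphocytes held it, with 19.6 CPM in T cells, 15.7 CPM in natural killer cells, 14.8 CPM in Ms4a1 B cells and 12.0 CPM in pro-B cells, and 15.9% of T cells were positive.

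Pairs of related classes were then compared by a rule rather than by a test. A gene was called different when its pooled CPM differed at least 2-fold, the library ranges did not overlap, and 1 of the classes reached 10 CPM. The same rule applied to all genes gives the background. The first question was how mature neutrophils differ from classical monocytes. Of the 9 genes that reached 10 CPM, Tlr6 alone was called, 4.25-fold higher in mature neutrophils, and it was higher in 6 of 6 libraries. Of all 8039 genes tested, 9.74% were called higher in mature neutrophils and 28.1% higher in classical monocytes. Tlr1 (12.3 against 6.00 CPM) and Tlr13 were also higher in mature neutrophils in 6 of 6 libraries, but Tlr1 ranges overlapped and Tlr13 differed 1.41-fold. Tlr8 was higher in classical monocytes in 6 of 6 libraries, at 19.4 against 11.1 CPM. Tlr2, Tlr4 and Cd14 were 1.11-fold, 1.17-fold and 1.04-fold higher in mature neutrophils, with overlapping ranges. The median log2 ratio of all genes tested was −0.55. With totals scaled by the trimmed mean of M-values (TMM), 64.4% rather than 25.7% of all calls were higher in neutrophils, Tlr1 and Tlr13 were called too, and the Myd88 log2 ratio turned from −0.04 to 0.50.

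Among the 34 tested genes of 37 in a list of the receptor pathway, 6 were called higher in mature neutrophils and 6 higher in classical monocytes. The shares over all 8039 genes tested were 9.74% and 28.1%. Higher in neutrophils were the scavenger receptor Cd36 (141 against 17.3 CPM), the adaptor Tirap that bridges TLR2 and TLR4 to MyD88 (50.2 against 18.7 CPM), Pik3ap1 (1016 against 89.9 CPM), Nfkb1 (704 against 298 CPM) and the inhibitors Irak3 (123 against 60.2 CPM) and Tnfaip3 (175 against 43.9 CPM). Higher in monocytes were Lbp, the receptor chaperone Cnpy3, the adaptor Ticam2 (17.0 against 6.11 CPM), the kinase Ikbkb and the transcription factors Irf5 (168 against 72.1 CPM) and Irf8. Of the 4 adaptors tested, 2 were called higher in neutrophils and 1 higher in monocytes.

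The second question was whether the genes change between neutrophil stages. Immature neutrophils were gated on secondary granule genes such as Ltf, Camp and Ngp. By CPM they held less of 9 of the 9 tested genes than mature neutrophils in 6 of 6 libraries. The share of all genes with this pattern is not given here, and the median log2 ratio of all genes tested, −0.56, had the same sign. Tlr6 was called, at 7.57 against 29.6 CPM and 3.91-fold, with libraries from 6.07 to 13.5 CPM against 21.9 to 31.6 CPM. Tlr4 was called too, at 31.1 against 88.3 CPM and 2.84-fold, and its highest immature library, library 3 at 73.9 CPM, lay just under the lowest mature one at 75.6 CPM. The other immature libraries held 24.3 to 39.6 CPM of Tlr4. Tlr2 stood at 177 against 349 CPM, with immature libraries up to 249 CPM and mature ones from 318 CPM, a 1.97-fold difference without overlap that missed the 2-fold limit. Tlr1 (2.62 against 12.3 CPM), Tlr7 (8.09 against 18.2 CPM) and Tlr8 (4.33 against 11.1 CPM) differed more than 2-fold with overlapping libraries.

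Against this, 12.0% of the 6787 genes tested were called higher in mature and 4.63% higher in immature neutrophils, and the median log2 ratio of immature over mature was −0.56. The scale decided part of the stage pattern. Under TMM scaling 87.3% of all calls were higher in immature neutrophils rather than 27.8%, the Tlr13 log2 ratio turned from −0.52 to 0.15 and that of Myd88 from −0.65 to 0.02, while Tlr6 was still called. Tlr4 was not called under that scaling or the stricter gate; under TMM its log2 ratio was −0.84. Without the 50 most abundant genes in the totals, 67.5% of all calls were higher in immature neutrophils, and Tlr6 was again the 1 gene called. The summed mature-neutrophil markers were higher in immature than in mature neutrophils, 173997 against 84382 CPM.

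Earlier stages held less of most of the genes. Cycling neutrophil precursors held 52.6 CPM of Tlr2, 24.0 CPM of Tlr4, 9.55 CPM of Tlr13 and 238 CPM of Cd14, and granulocyte precursors, rich in azurophil granule genes, held 56.3, 25.6, 3.55 and 171 CPM of the same genes. Tlr4 libraries of both precursor classes overlapped those of immature neutrophils. In the pathway list 4 of 32 tested genes were called higher in mature neutrophils, Ly96 (31.7 against 10.2 CPM), Pik3ap1 (1016 against 379 CPM), Irak2 (494 against 246 CPM) and Irf5 (72.1 against 17.1 CPM), and 1 higher in immature ones, the lipopolysaccharide-binding protein gene Lbp (54.7 against 1.67 CPM). The shares over all 6787 genes tested were 12.0% and 4.63%.

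**Figure D4:**
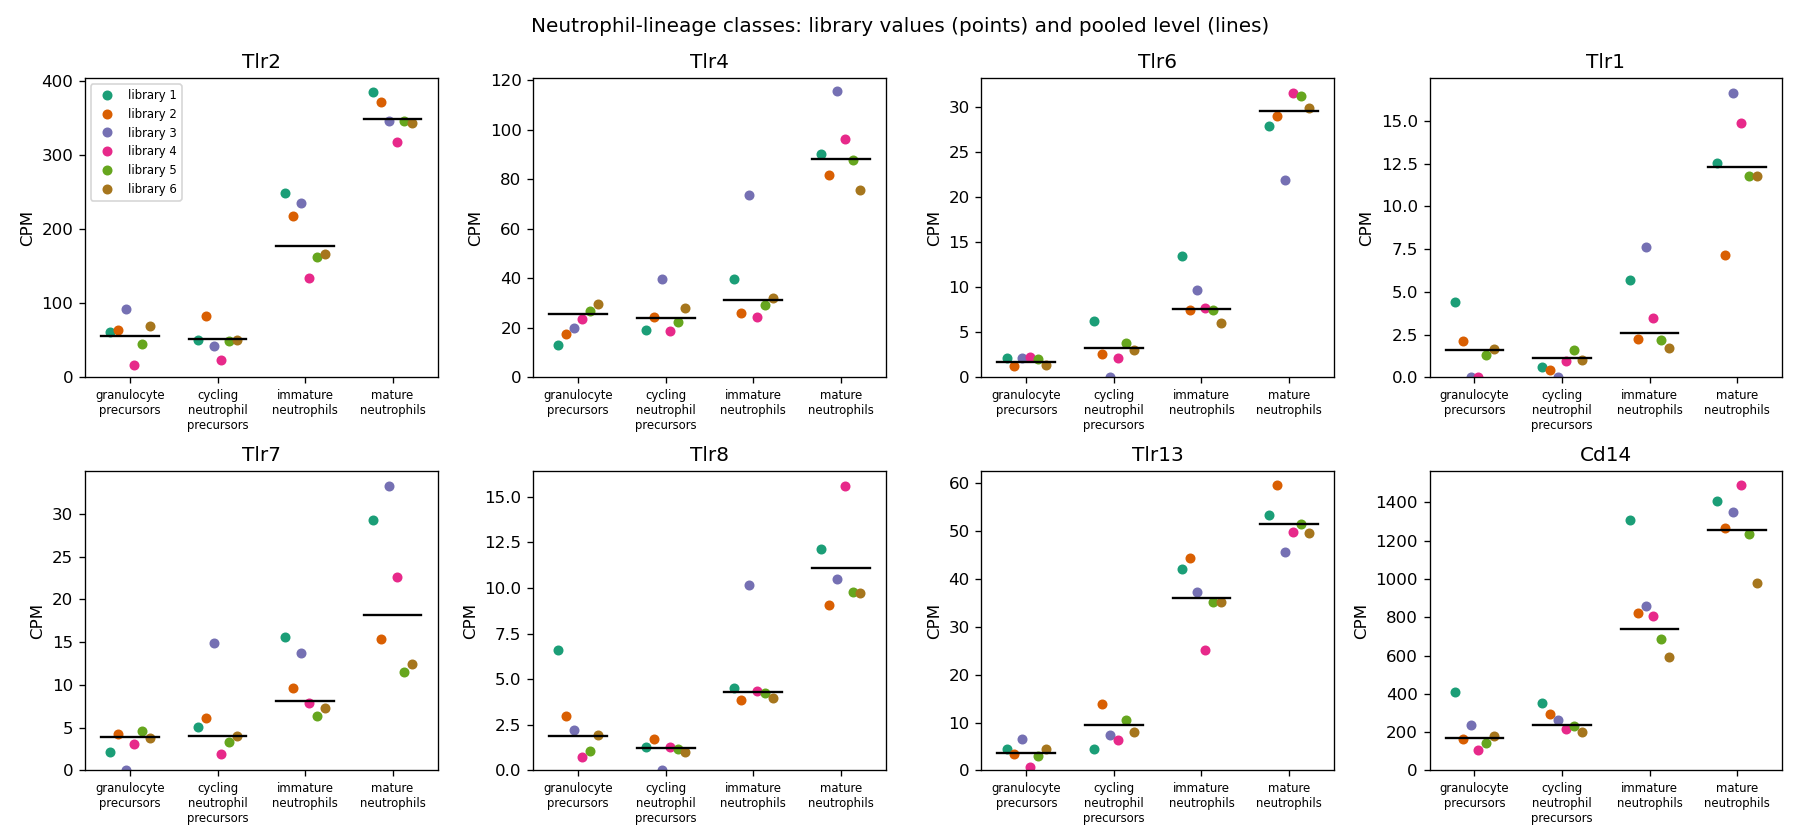
Levels of 8 of the genes in granulocyte precursors, cycling neutrophil precursors, immature and mature neutrophils, in CPM on linear axes that differ between panels, with 1 point per library of at least 10 cells and a line at the pooled level. The Tlr6 and Tlr2 points of mature neutrophils lie above all points of the other stages, while the Cd14 points of immature neutrophils reach 1310 CPM, inside the mature range of 979 to 1493 CPM.

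In macrophages and monocytes none of the 10 genes met the call rule, although several differed by more than 1.5-fold. Between resident and inflammatory macrophages 0 of 8 tested genes were called, where 3.68% and 0.954% of 8074 genes were called higher in resident and in inflammatory macrophages. Cd14 was higher in inflammatory macrophages in 6 of 6 libraries, at 1548 against 873 CPM, with libraries from 1244 CPM against libraries up to 1194 CPM, and so missed only the 2-fold limit. Tlr1 was 1.97-fold higher in inflammatory macrophages, in 4 of 6 libraries, and Leiden clusters called both Tlr1 and Cd14. Tlr7 was higher in resident macrophages in 4 of 6 libraries, at 58.9 against 32.9 CPM. The summed neutrophil markers were 24045 CPM in resident and 15881 CPM in inflammatory macrophages. The part of neutrophil transcripts in this class pair was not tested. Cd36 was the 1 pathway gene called of 34 tested, at 685 CPM in resident and 336 CPM in inflammatory macrophages. Between classical and nonclassical monocytes 0 of 7 tested genes were called, beside 1.15% and 2.35% of 8008 genes called higher in classical and in nonclassical monocytes. Cd14 was higher in classical monocytes in 6 of 6 libraries at 1213 against 673 CPM, yet the ranges of 945 to 1900 and 447 to 1283 CPM overlapped. The stricter gate and the mean over cells called Cd14. Tlr4 was 1.62-fold higher in classical monocytes, in 4 of 6 libraries. Cd36 (314 against 17.3 CPM) and Pik3ap1 (343 against 89.9 CPM) were called higher in nonclassical monocytes, 2 of 34 pathway genes. Both were also called higher in mature neutrophils than in classical monocytes. Neutrophil markers were higher in nonclassical than in classical monocytes, 25521 against 8977 CPM. The part of neutrophil transcripts in these 2 calls was not tested.

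Plasmacytoid dendritic cells and B cells, the classes with the highest pooled Tlr9 levels, differed in Tlr7 and Tlr1. Tlr7 was 6.00-fold higher in plasmacytoid dendritic cells (78.6 against 13.1 CPM), with no library below 61.7 CPM against none above 16.4 CPM. Tlr1 was 18.8-fold higher in B cells, at 14.98 CPM against 0.796 CPM from 4 UMIs. These were 2 of 5 tested genes, while 10.7% of 8909 genes were called higher in plasmacytoid dendritic cells and 8.34% higher in B cells. Myd88 was higher in plasmacytoid dendritic cells in 6 of 6 libraries, at 29.2 against 14.8 CPM and 1.98-fold, under the limit. Tlr9 could not be told apart between these classes. In the pathway list the interferon gene activators Irf7 (74.0 against 10.9 CPM) and Irf8 were called higher in plasmacytoid dendritic cells. Tirap, Pik3ap1, Traf3 and the inhibitor Irak3 (64.9 against 3.98 CPM) were called higher in B cells, in all 6 of 31 tested genes.

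Within the B lineage, Ms4a1 B cells held more Tlr1 and Tlr7 than pre-B cells, which still assemble their immunoglobulin genes. A Cd14 difference depended on how the classes were made. Tlr1 was 8.38-fold higher (14.98 against 1.79 CPM) and Tlr7 7.32-fold higher (13.1 against 1.79 CPM), each in 6 of 6 libraries and without overlap. Cd14 was 3.495-fold higher (54.2 against 15.5 CPM), also in 6 of 6 libraries. Pooled neutrophil markers were higher in B cells too, 2861 against 1867 CPM, but not in every library. In libraries 1 to 4 B cells held 939 to 4293 CPM of the markers, against 38.8 to 150 CPM in pre-B cells. In libraries 5 and 6 B cells held 829 and 3227 CPM, against 4391 and 5963 CPM. The part of the markers in the Cd14 difference was not tested. The Cd14 call was lost under a stricter gate, a mean over cells and Leiden clusters, where its log2 ratio of pre-B over B cells turned from −1.81 to 0.13. The Tlr7 call was lost under the stricter gate, at a log2 ratio of −3.08. These were 3 of 5 tested genes, beside 6.43% of 8636 genes called higher in B cells and 6.97% higher in pre-B cells. Tlr9 was higher in B cells in 6 of 6 libraries, at 3.64 against 0.894 CPM and 4.07-fold, but under 10 CPM it was not tested. In the pathway list 7 of 31 tested genes were called higher in B cells, among them Cd180 (221 against 39.5 CPM), a relative of TLR4 that B cells carry, its partner Ly86 (280 against 105 CPM) and Irak2 (203 against 31.4 CPM). Traf6 (152 against 59.3 CPM) and the inhibitor Socs1 (68.0 against 14.6 CPM) were called higher in pre-B cells.

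**Figure D5:**
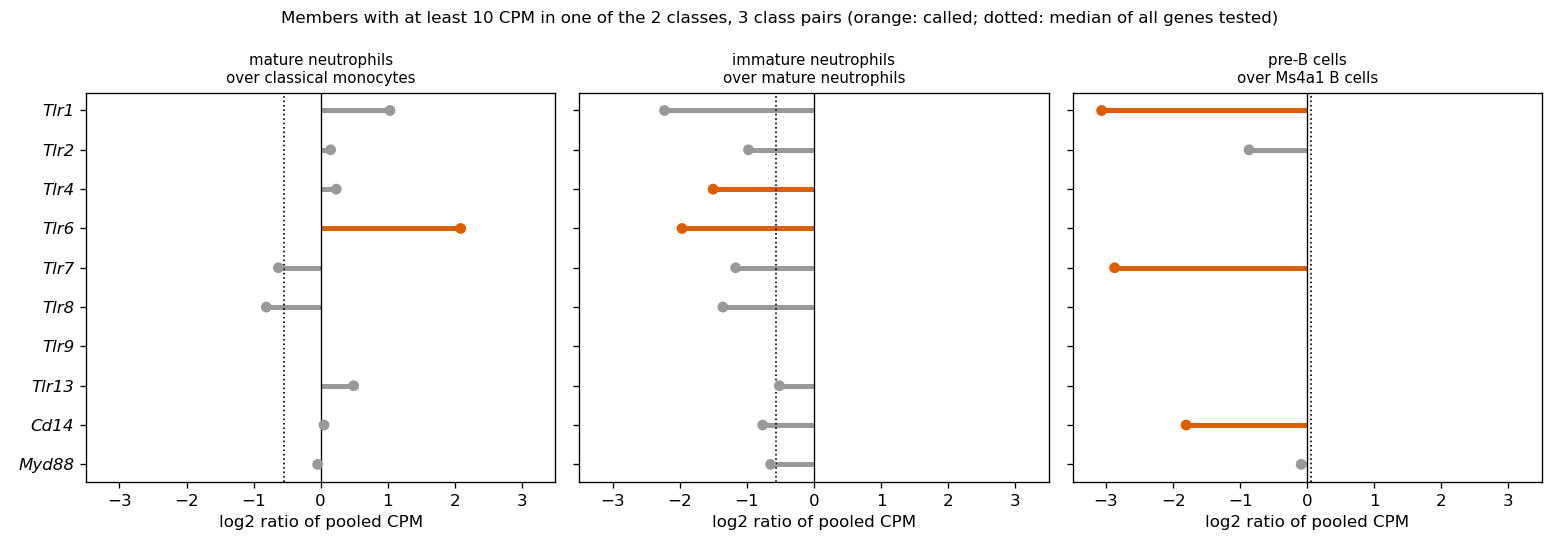
Log2 ratio of pooled CPM for the genes that reached 10 CPM, in 3 class pairs, with called genes in orange, other genes in gray and a dotted line at the median of all genes tested. Tlr6 is called in both neutrophil pairs, at log2 ratios of 2.09 and −1.97, and Tlr1, Tlr7 and Cd14 are called in the B lineage pair, where the Cd14 log2 ratio turns to 0.13 with Leiden clusters and the stricter gate loses Tlr7 and Cd14.

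The dendritic cell subsets differed in Tlr2 and Cd14, both higher in type 2 dendritic cells. Tlr2 was 3.21-fold higher (99.7 against 31.1 CPM, libraries 79.1 to 138 against 8.57 to 70.7 CPM) and Cd14 5.83-fold higher (725 against 124 CPM, libraries 320 to 953 against 7.98 to 242 CPM). These were 2 of 3 tested genes, beside 4.33% of 8147 genes called higher in type 2 and 3.58% higher in type 1 dendritic cells. Neutrophil markers were also higher in type 2 dendritic cells, 9369 against 609 CPM, and at the ratio of mature neutrophils they would carry 38.7 of the 99.7 CPM of Tlr2 there. Their part in these differences was not tested. Of 33 tested pathway genes, the NF-kB subunit gene Nfkb1 (1309 against 244 CPM) and the inhibitors Irak3, Tnfaip3 and Nfkbia were called higher in type 2 dendritic cells. Cd36 and Irf8 were called higher in type 1 dendritic cells, and Irf8 is a marker of their gate. The 4 other Toll-like receptor genes of the table reached 10 CPM in 1 or 2 classes each. Tlr3, the double-stranded RNA receptor, reached 52.6 CPM in type 1 dendritic cells against 1.85 CPM in type 2 and was called at 28.4-fold. Tlr11 was highest in type 1 dendritic cells at 12.2 CPM, Tlr12 in plasmacytoid dendritic cells at 17.5 CPM and Tlr5, the flagellin receptor, in inflammatory macrophages at 11.4 CPM, with 9.33 CPM in classical monocytes and 6.39 CPM in mature neutrophils.

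Patterns over the 23 classes were compared by Pearson's r of log2(CPM + 10) among 10575 genes, as a description of values that share libraries and class sizes. Tlr2 and Cd14 were the genes most like each other (r = 0.97). App (0.96) and Gda (0.95) came next for Tlr2, and App (0.94) and Hacd4 (0.93) for Cd14. Tlr4 was most like Tlr2 (0.89), Lamp2 (0.89) and App (0.88), and Tlr13 was most like Slc11a1 (0.97), the metal transporter of phagosomes, Cd300lb (0.95) and Cd300ld (0.94). Tlr6 was most like Lypd6b (0.93), Arg2 and Vnn3, and Tlr8 most like Ms4a8a (0.92), C130050O18Rik and Ms4a4a. Tlr7 (Lair1, Zdhhc9 and Tmem86a, 0.88 to 0.85), Tlr9 (Rnase6, Kmo and Kynu, 0.84 to 0.82) and Tlr1 (Il18bp, Arg1 and Mdfic, 0.77 to 0.75) had looser likenesses. Myd88 was most like Il13ra1 (0.91), Mnda (0.90) and the interferon-inducible Ifi204 (0.90).

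Within classes, the pooled share of cells with Tlr2 was higher among cells with Cd14 than among those without, in all 5 classes examined. In 3 of the 5 classes it was also higher in at least 5 libraries. At 3000 UMIs per cell, 59.6% of classical monocytes with a Cd14 UMI also held Tlr2, against 43.3% of those without, and the share was higher with Cd14 in 5 of 6 libraries. The shares were 48.1% against 27.4% in inflammatory macrophages, in 5 of the 5 libraries compared, and 38.2% against 29.3% in immature neutrophils, in 6 of 6. Mature neutrophils showed 58.9% against 58.0%, higher in 4 libraries and lower in 2, and resident macrophages 41.3% against 37.6%, lower in 3 of the 3 libraries compared. Tlr4 was found in 19.3% of classical monocytes with Cd14 and 12.7% of those without, higher in 5 of 6 libraries, and in immature neutrophils in 8.43% against 6.42%, higher in 6 of 6. In mature neutrophils the shares were 21.0% against 17.9% (higher in 4 and lower in 2 libraries), in inflammatory macrophages 16.4% against 15.9% (3 and 2), and in resident macrophages 15.7% against 17.6% (1 and 2). Cells that hold both parts of a lipoprotein receptor, Tlr2 with Tlr1 or Tlr6, made up 46.3% of Cxcl9 macrophages, 30.2% of inflammatory macrophages, 18.6% of classical monocytes and 17.8% of mature neutrophils without thinning, at median depths of 20168, 18406, 16354.5 and 4918 UMIs. After thinning, Tlr2 was found in 63.0% of mature neutrophils with Tlr1 against 58.5% without (higher in 3 libraries, lower in 1). The shares were 50% against 56.1% in classical monocytes and 46.5% against 45.5% in inflammatory macrophages (0 and 2 each). For Tlr6 they were 60.9% against 58.4% in mature neutrophils (4 and 2) and 62.3% against 55.9% in classical monocytes (2 and 0). In immature neutrophils they were 34.6% against 35.4% (1 and 2). Cxcl9 macrophages were not compared.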

How the data were processed

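Single-cell RNA sequencing was performed by the authors on CD45-positive joint cells with the 10x Chromium 3′ v3.1 kit. Cell Ranger 7 with the mm10 genome gave the counts, ambient RNA was corrected with SoupX, DoubletFinder served to drop doublets and Seurat to filter cells, and the authors deposited whole UMI counts of all 6 samples in 1 table. Whether intronic reads were counted is not given in the sources used here. A stored 0, as ambient removal can leave, made up 1.68% of entries and 4.70% of those of Cd14.

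Counts were summed per class and barcode library and divided by the summed UMIs of all genes. A cell entered a class when it held the set number of marker genes and met the limits on other markers. Classes of 50 cells or more were used, and 5 smaller ones were left out. Libraries under 10 cells of a class gave no value. Shares of positive cells were also computed after thinning each cell to 3000 UMIs, without shallower cells. Intervals are exact Poisson (levels) and Clopper-Pearson (shares). The named genes are the 10 genes, the other Toll-like receptor genes, a pathway list of 37 genes and the 3 genes most like each. Genes, lists, gates and limits were chosen with earlier results of these data known. The call rule was tested on simulated counts of a single class pair without carried-over transcripts, which does not show that calls in the real classes are right. Alternatives were a stricter gate, Leiden clusters, TMM scaling (edgeR 4.0.16), totals without the 50 most abundant genes, other limits, a mean over cells, leaving out each library and, chosen after seeing the data, the library median. Library numbers were not mapped to samples, so no treatment comparison was run. Software was Python 3.11.15, numpy 2.4.6, scipy 1.17.1, pandas 2.3.3, scikit-learn 1.9.0, scanpy 1.11.5, igraph 0.11.9, matplotlib 3.10.9 and R 4.3.3.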

Additional observations from a re-analysis of the deposited data

How the results depend on the processing

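Tlr6 was called higher in mature than in immature neutrophils and in classical monocytes, Tlr1 higher in B cells than in pre-B cells and plasmacytoid dendritic cells, and Tlr7 higher in plasmacytoid dendritic cells than in B cells, under every alternative run. Other counts of called genes moved. Between immature and mature neutrophils, 2 genes were called and leaving out 1 library gave 2 to 4: 4 without library 2 (Tlr1, Tlr2, Tlr4, Tlr6) and 4 without library 3 (Tlr1, Tlr4, Tlr6, Tlr8). The stricter gate, TMM scaling and totals without the 50 most abundant genes each gave 1 (Tlr6), the mean over cells 4 and Leiden clusters 5. Between mature neutrophils and classical monocytes, 3 were called with TMM scaling (Tlr1, Tlr6, Tlr13) and 3 with the mean over cells (Tlr6, and Tlr7 and Tlr8 higher in monocytes), against 1. The stricter gate called 1 gene between the monocyte classes (Cd14), as did the mean over cells, against 0, and 1 between pre-B and B cells (Tlr1), against 3. Leiden clusters called 2 between resident and inflammatory macrophages (Tlr1 and Cd14) and 4 between plasmacytoid dendritic cells and B cells, and turned the log2 ratio of Cd14 in pre-B over B cells to 0.13. A 1.5-fold limit called 1 between the macrophage classes. The dendritic cell pair could not be computed with Leiden clusters or at 30 cells per library. Thinning left the class with the highest share of positive cells in place for 2 of 10 genes. TMM scaling moved the share of dendritic cell calls higher in type 1 from 45.3% to 30.4%. The causes were not tested beyond these settings. No paired test was run, and the numbered replicates of the groups were not tied to libraries. Classes of the same library were set side by side by counting the libraries in which a gene was higher. The call rule compared library ranges and did not use this pairing. The class with the highest level changed for Cd14 and Tlr13 with TMM scaling, Tlr8 and Tlr13 with the stricter gate, Tlr1 and Tlr13 with Leiden clusters, Tlr13 without library 1 or 2 and Tlr9 without library 5. For Tlr1 this change was fixed beforehand, because no Leiden cluster was named Cxcl9 macrophages. Depth limits Tlr9 most, with 403 UMIs in all.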
